A study of Mus musculus with 9 samples.

Results

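The miR-17-92 and miR-106b-25 clusters are paralogous groups of miRNAs, each cut from 1 primary transcript. Their members were taken by name: mmu-miR-17-5p, mmu-miR-18a-5p, mmu-miR-19a-3p, mmu-miR-20a-5p, mmu-miR-19b-3p and mmu-miR-92a-3p for miR-17-92, and mmu-miR-106b-5p, mmu-miR-93-5p and mmu-miR-25-3p for miR-106b-25 (the prefix mmu marks mouse miRNAs). This gave 9 of the 1247 mouse miRNAs on the array. They were measured in the hippocampus of male C57BL/6 mice, about 8 weeks old, that received liquid drops onto the back of the throat (oropharyngeal aspiration) every other day for 4 weeks. The control group (3 arrays) received saline, and the exposed groups received PM2.5, fine airborne particles, at 1 mg/kg bw (3 arrays) or 5 mg/kg bw (3 arrays), where bw is body weight. Each array held labelled RNA of 1 mouse, and every group was of the same strain and sex. The comparisons ask whether the members of either cluster differed in level between PM2.5-exposed and saline-treated hippocampi.

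A miRNA guides silencing proteins to messenger RNAs that pair with its seed, the bases 2 to 8 from its 5′ end, and the paired messages are translated less or degraded. Both clusters are best known for keeping dividing cells in cycle and alive: miR-17-92 is an oncogene in lymphoma, and in the brain it is known for its high expression in neural progenitors. Mammals also carry the third paralogue, miR-106a-363, on the X chromosome. Since members of different clusters can share a seed, they can share targets, so the 9 mature sequences are shown here by seed group, with the seed in capitals and the rest in lower case (RefSeq, build GRCm38.p6, 5′ to 3′). The first group, miR-17-5p, miR-20a-5p, miR-106b-5p and miR-93-5p, is known to target the cell cycle inhibitor Cdkn1a. miR-19a-3p and miR-19b-3p form another group, and miR-92a-3p and miR-25-3p share the last one. miR-18a-5p has a seed 1 base away from that of the first group.
mmu-miR-17-5p: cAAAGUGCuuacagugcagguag
mmu-miR-20a-5p: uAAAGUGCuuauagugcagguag
mmu-miR-106b-5p: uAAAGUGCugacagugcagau
mmu-miR-93-5p: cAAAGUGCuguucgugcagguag
mmu-miR-18a-5p: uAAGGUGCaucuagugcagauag
mmu-miR-19a-3p: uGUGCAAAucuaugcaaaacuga
mmu-miR-19b-3p: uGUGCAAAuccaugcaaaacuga
mmu-miR-92a-3p: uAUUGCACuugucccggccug
mmu-miR-25-3p: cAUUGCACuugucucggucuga

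Read base by base from the 5′ end, miR-19a-3p and miR-19b-3p differed at 1 of 23 bases, miR-17-5p and miR-20a-5p at 2 of 23, and miR-92a-3p and miR-25-3p at 3 of 21. Within the first seed group, miR-106b-5p and miR-93-5p, although from the same cluster, were the pair that differed most, at 5 of 21 bases. The 6 hairpins of miR-17-92 lie within 836 bases of the plus strand of chromosome 14 (chr14:115043671-115044506), in the order 17, 18a, 19a, 20a, 19b, 92a. RefSeq places the gene Mir17hg, the host of the cluster, at chr14:115044390-115046728, and of the 6 hairpins its span contained only that of miR-92a whole. The 3 hairpins of miR-106b-25 lie within 498 bases of the minus strand of chromosome 5 (chr5:138165321-138165818), all inside the bounds of Mcm7 (chr5:138164583-138172111), which encodes a subunit of the replicative DNA helicase. The mature miR-19b-3p and miR-92a-3p are also made from hairpins of miR-106a-363 on the X chromosome (chrX:52741693-52742567), so for these 2 members the array cannot tell the loci apart.

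The scanner software called between 410 and 436 miRNAs detected per array, and 0 spots were saturated. Replicate 3 of 5 mg/kg bw was the only array on slide 2. On slide 1, all control arrays shared row 1 with replicate 1 of 1 mg/kg bw, and row 2 contained the remaining arrays of both doses, so that row and dose overlapped in part. All 4 neuronal markers (miR-124-3p, miR-128-3p, miR-9-5p and miR-132-3p) were detected on all 9 arrays, as the hippocampal label requires. A value below is the log2 of the background-subtracted signal of a miRNA, divided by the 75th percentile, on the same array, of the 395 miRNAs that all 9 arrays detected, so a value of 0 lies at that percentile. Each miRNA has its own probes, so these values compare arrays and not miRNAs.

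Of the 9 members, 7 were detected on all 9 arrays. miR-17-5p was detected on 7 arrays, 2 of control, 2 of 1 mg/kg bw and 3 of 5 mg/kg bw. miR-18a-5p was detected on 2 arrays, both of 1 mg/kg bw. A miRNA was tested if some group had it detected on each of its 3 arrays, which 424 miRNAs and 8 of the 9 members met, and miR-18a-5p did not. miR-17-5p entered through the 5 mg/kg bw group alone, so its comparisons with that group are given as values and without a test. It stays among the 8 members in the counts, medians and intervals, which are no test of it at that dose. Each member had 2 probes, which pair with the 3′ part of the miRNA, and none of the 18 probe targets held the whole seed. The probes of 8 members matched 1 mature mouse miRNA exactly. Those of miR-17-5p, 12 and 13 bases long, matched miR-106a-5p as well, and miR-19a-3p and miR-19b-3p had probes with 1 mismatch to each other. The probes of miR-17-5p and miR-20a-5p likewise had 1 mismatch to each other, and both had 1 mismatch to miR-20b-5p. Signal from such near-identical relatives was not tested.

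Of both clusters, 1 member passed the unadjusted threshold of the methods in 1 comparison. This was miR-92a-3p, at 0.806-fold of the control at 5 mg/kg bw (log2 change -0.31, SE 0.13), and the other tested members of its cluster and all 3 of miR-106b-25 did not pass. At 5 mg/kg bw, 1 of 8 members (12.5%) had an unadjusted p under 0.05 with limma, the threshold that the methods name for the arrays, beside 9.43% of all tested miRNAs, and it was lower, as were 5.42% of all. At 1 mg/kg bw the count was 0 of 8, beside 7.78% of all tested miRNAs, and between the exposed groups it was 0 of 8, beside 3.77%. After Benjamini-Hochberg adjustment over the 424 tested miRNAs, the count of members was 0 in each of the 3 comparisons, beside 0.236%, 0% and 0.236% of all tested miRNAs for 1 mg/kg bw and 5 mg/kg bw against control and for 5 against 1 mg/kg bw. The shares of members thus lay close to the background of the array. In bulk tissue, fewer cells that make a miRNA and less of it per cell cannot be told apart.

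The fitted changes were small, and their sign depended on the scaling. In both comparisons with the control, 7 of 8 tested members had a fitted change below 0, where 60.1% of all tested miRNAs did so at the lower dose and 51.2% at the higher. Without scaling the counts were 0 of 8 and 3 of 8. Under the files' total signal they were 1 of 8 and 2 of 8. Counted against the median of all tested miRNAs, 3 of 8 members lay below it at the lower dose and 6 of 8 at the higher, these counts being 3 and 6 without scaling and 4 and 6 under the files' total signal. Both comparisons share the 3 control arrays. The median change of the 8 members was -0.017 for the lower dose and -0.060 for the higher, and that of all tested miRNAs was -0.032 and -0.0035. By cluster, the median at 5 mg/kg bw was -0.072 over the 5 tested members of miR-17-92 and -0.047 over the 3 of miR-106b-25. By seed it was -0.036 for the 4 members with the miR-17 seed, -0.11 for miR-19a-3p with miR-19b-3p, and -0.18 for miR-92a-3p with miR-25-3p. The median SE of a single member's change was 0.095 over the 8 members and 0.12 over miR-92a-3p and miR-25-3p. The changes of these last members were -0.31 and -0.047. An SE of this kind does not measure the error of a group median.

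**Figure D1:**
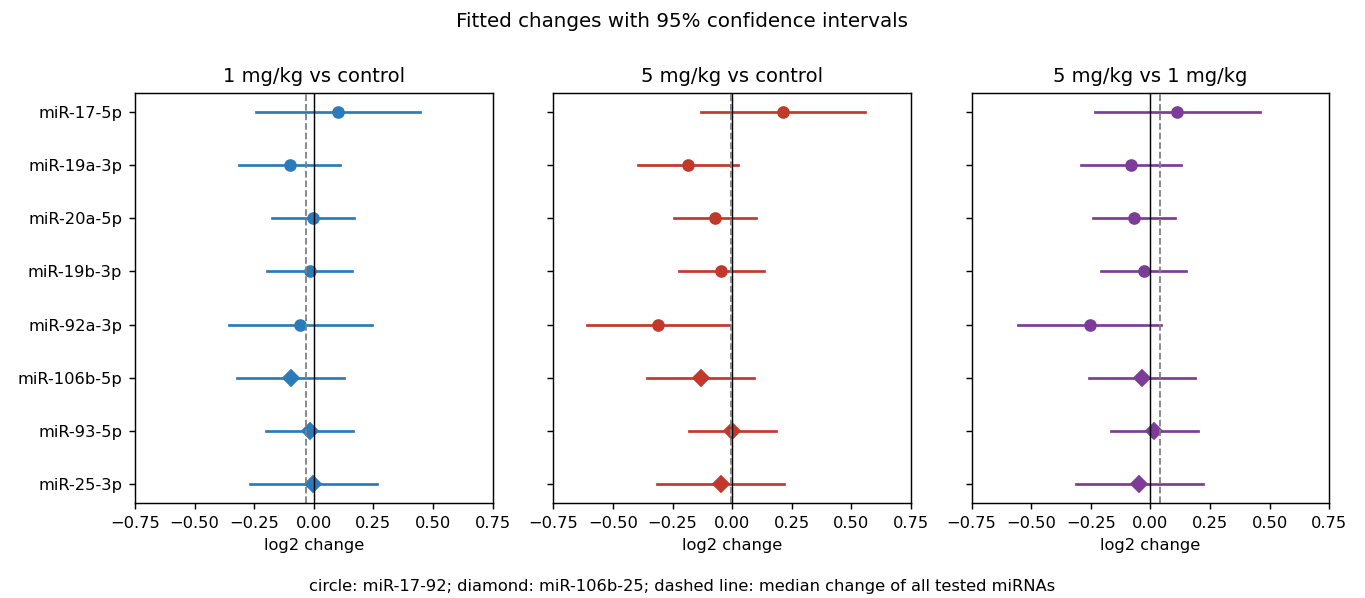
Fitted log2 changes of the 8 tested members (x axis, log2 units) in the 3 comparisons (panels), with bars for 95% confidence intervals. Circles are miR-17-92, diamonds are miR-106b-25, and the dashed line is the median of all 424 tested miRNAs. The interval of miR-92a-3p at 5 mg/kg bw, from -0.61 to -0.013, is the 1 interval of 24 that does not hold 0. Those of miR-17-5p in comparisons with 5 mg/kg bw are drawn as a description and are no test.

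In the group with the miR-17 seed, miR-20a-5p and miR-93-5p varied least. miR-20a-5p read -1.24, -1.29 and -1.38 in the control, -1.31, -1.36 and -1.25 at 1 mg/kg bw and -1.46, -1.40 and -1.27 at 5 mg/kg bw. The 3 groups overlapped, and the change at 5 mg/kg bw was -0.07 (95% confidence interval -0.25 to 0.10). miR-93-5p stood at -0.91, -0.98 and -0.999 in the control, -1.02, -1.07 and -0.85 at 1 mg/kg bw and -0.97, -1.04 and -0.87 at 5 mg/kg bw. Its fitted change at 5 mg/kg bw, with an interval of -0.18 to 0.18, is centred on 0, and in each exposed group 1 array lay above every control array. miR-106b-5p, the first hairpin of the Mcm7 cluster, read -0.39, -0.59 and -0.54 in the control, -0.57, -0.72 and -0.52 at 1 mg/kg bw and -0.70, -0.74 and -0.47 at 5 mg/kg bw. The groups overlapped again, with changes of -0.10 (interval -0.32 to 0.13) and -0.13 (-0.36 to 0.091) at the lower and the higher dose.

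miR-17-5p, which gives the larger cluster its name, was, with this scaling, the 1 tested member with fitted changes above 0 at both doses. The summed signal of its probes was 6.53 to 14.2 units per array. Its values were -5.86, -5.83 and -5.93 in the control, -6.07, -5.80 and -5.43 at 1 mg/kg bw and -5.62, -5.81 and -5.54 at 5 mg/kg bw. On control replicate 3 and 1 mg/kg bw replicate 1 it was not detected, and these values are the lowest detected signal of the array. The 5 mg/kg bw group is the one through which it entered the test, and the values of the 1 mg/kg bw group spanned those of the other groups. The difference of 0.21 between 5 mg/kg bw and control (95% confidence interval -0.13 to 0.56) is a description and no test.

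The total signal that the scanner software writes for each miRNA gave miR-17-5p another scale. On the 7 arrays where it was detected, the total signal was 927 to 1656 units, which is 82.5 to 149 times the summed signal of its probes, and on the other 2 arrays it was 1.34 and 1.42 units. For the 7 members detected on all arrays this ratio was between 0.226 and 0.365, and its median over all tested miRNAs was 0.364. miR-17-5p ranked 6 by this ratio among 424 miRNAs, 35 of which had a ratio above 10. The total signal of miR-17-5p thus followed its detection call, while its probe signal stayed within 6.53 to 14.2 units, and the changes of all members rest on the probe signals unless another signal is named.

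miR-18a-5p was not detected on any control or 5 mg/kg bw array, so no fold is given. Its probes gave -5.54, -5.64 and -5.66 in the control, -5.62, -5.59 and -5.44 at 1 mg/kg bw and -5.54, -5.69 and -5.60 at 5 mg/kg bw. Detection on replicates 2 and 3 of 1 mg/kg bw came with the highest value of the 9 in replicate 3, while the value of replicate 2 lay within the range of the arrays without detection.

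**Figure D2:**
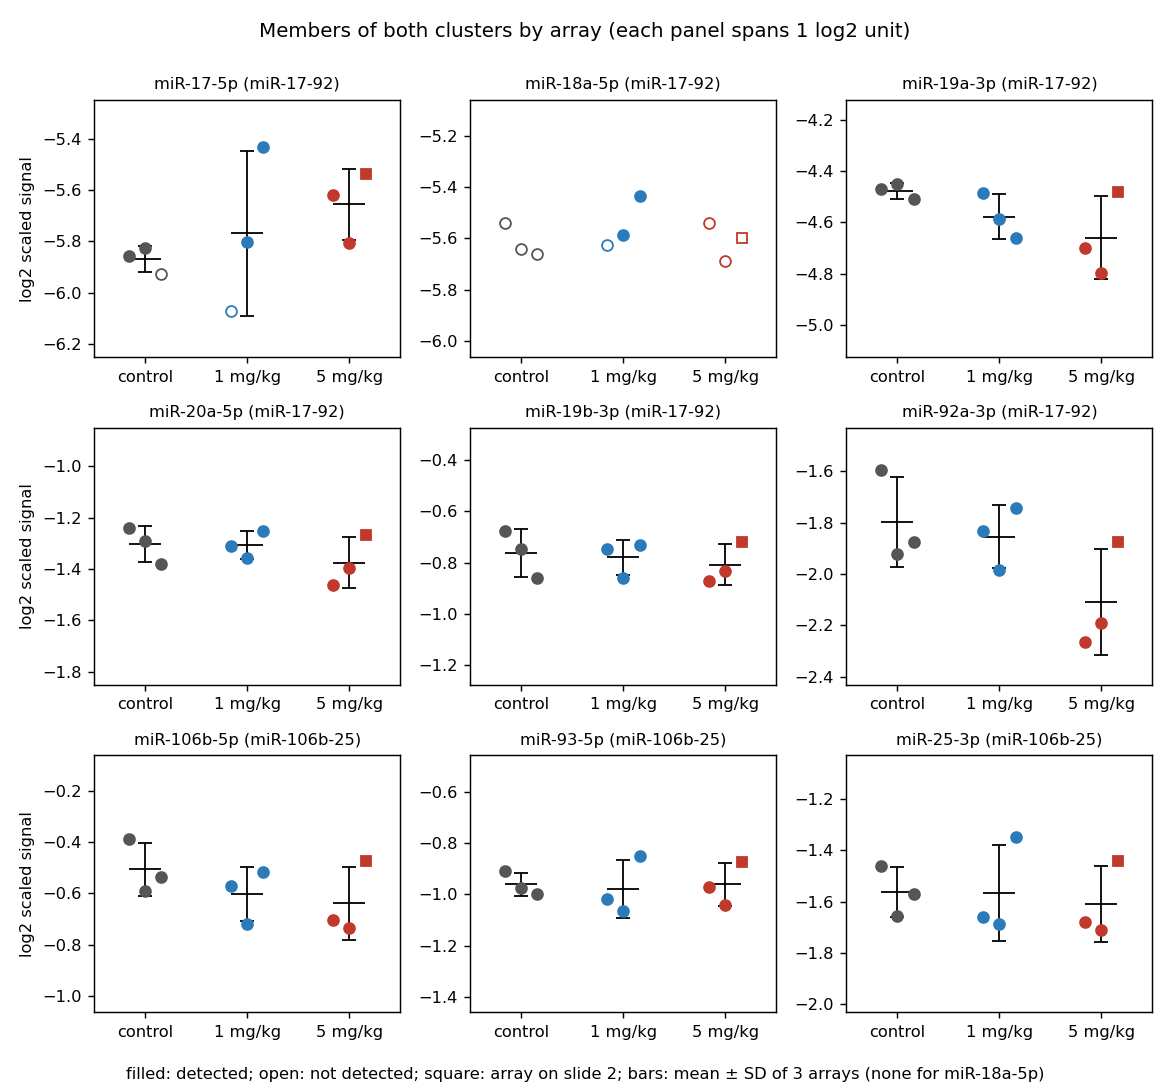
Log2 scaled signal (y axis) of the 9 members on each array, by group (x axis), with every panel spanning 1 log2 unit. Filled points were detected and open points were not, the square is the array on slide 2, and bars give the mean and SD of 3 arrays where the miRNA was tested. In the miR-92a-3p panel 2 of the 3 arrays of 5 mg/kg bw lie below all others, and the square lies among the control values.

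Both members with the miR-19 seed belong to miR-17-92. miR-19a-3p read -4.47, -4.45 and -4.51 in the control, -4.49, -4.59 and -4.66 at 1 mg/kg bw and -4.70, -4.80 and -4.48 at 5 mg/kg bw. Of the 6 exposed arrays, 4 lay below every control array, and replicate 1 of the lower and replicate 3 of the higher dose did not. The change was -0.10 at 1 mg/kg bw (interval -0.31 to 0.11) and -0.18 at 5 mg/kg bw (-0.39 to 0.027, limma p = 0.0791, Benjamini-Hochberg adjusted p = 0.549, exact permutation p = 0.2). miR-19b-3p, which can also come from the X chromosome, read -0.68, -0.75 and -0.86 in the control, -0.75, -0.86 and -0.73 at 1 mg/kg bw and -0.87, -0.83 and -0.72 at 5 mg/kg bw. The 3 groups overlapped almost fully, with changes of -0.017 and -0.046.

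miR-92a-3p, the last hairpin of miR-17-92, read -1.60, -1.92 and -1.88 in the control, -1.83, -1.99 and -1.74 at 1 mg/kg bw and -2.27, -2.19 and -1.87 at 5 mg/kg bw. Replicates 1 and 2 of 5 mg/kg bw were the lowest of the 9 arrays, and replicate 3 lay above 2 of the 3 control arrays, so the groups overlapped. The change at 5 mg/kg bw was -0.31 (95% confidence interval -0.61 to -0.013, limma p = 0.0427, Benjamini-Hochberg adjusted p = 0.502, two-sided exact permutation p = 0.3). It ranked 36 among the 424 tested miRNAs by the p of limma, and 0.1 is the smallest permutation p that 3 against 3 arrays allow. Both probes were lower, the probe of 16 bases by -0.25 and that of 17 bases by -0.33. At 1 mg/kg bw the change was -0.057 (interval -0.36 to 0.24), and from 1 to 5 mg/kg bw it was -0.26 (-0.55 to 0.044, limma p = 0.0848, adjusted p = 0.995, exact permutation p = 0.2).

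miR-25-3p, its seed partner in the other cluster, read -1.46, -1.66 and -1.57 in the control, -1.66, -1.69 and -1.35 at 1 mg/kg bw and -1.68, -1.71 and -1.44 at 5 mg/kg bw. Its groups overlapped, with fitted changes of -0.0012 for the lower dose and -0.047 (interval -0.31 to 0.22) for the higher. The median SD within groups was 0.11 over the 8 tested members, beside 0.14 over all tested miRNAs, with miR-20a-5p lowest at 0.077 and miR-17-5p highest at 0.20. Like miR-17-5p, miR-92a-3p (0.17) and miR-25-3p (0.15) lay above the median of all tested miRNAs.

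The same array stood highest for most members in each group. Among the 7 members detected on all arrays, control replicate 1 was the highest of its group for 6, 1 mg/kg bw replicate 3 for 6, and 5 mg/kg bw replicate 3, the array on slide 2, for 7. The mean over these 7 members was -1.54, -1.66 and -1.68 in the control, -1.66, -1.75 and -1.59 at 1 mg/kg bw and -1.81, -1.82 and -1.59 at 5 mg/kg bw. These 3 arrays also had the highest summed signal of the 4 neuronal markers in their groups, at 7.43, 7.23 and 7.37 on the log2 scale, in ranges of 7.19 to 7.43 (control), 6.94 to 7.23 (1 mg/kg bw) and 7.11 to 7.37 (5 mg/kg bw). Singly, miR-124-3p, miR-128-3p and miR-132-3p were also highest there. miR-9-5p was instead lowest of its group on control replicate 1 (4.23, beside 4.34 and 4.34). It was lowest again on 5 mg/kg bw replicate 3 (4.43, beside 4.45 and 4.45). The part of these markers in the members' values was not tested.

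Other cell types were also followed through marker lists. The summed oligodendrocyte markers (2 of 2 detected on all arrays) were 1.36 and 1.78 on the arrays of 5 mg/kg bw where miR-92a-3p was lowest and 2.55 on the third, beside 1.86 to 2.39 in the control. The red cell sum was 1.54 to 1.89 in the control and 1.92 to 2.04 at 5 mg/kg bw, with 1 of 3 markers detected on all arrays and miR-144-5p on 0. The white cell sum was -1.92 to -1.85 in the control and -1.79 to -1.62 at 5 mg/kg bw, with 2 of 3 markers detected on all arrays and miR-142-5p on 0. The choroid plexus sum was 1.62 to 2.29 in the control, 2.42 to 3.13 at 1 mg/kg bw and 1.51 to 2.48 at 5 mg/kg bw, with 2 of 3 markers detected on all arrays. The vessel wall sum, from 3 of 3 markers, stayed between 2.54 and 2.75 on all 9 arrays. The part of any of these in the changes of the members was not tested.

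The position of the arrays moved with the result for miR-92a-3p. Within row 2 of slide 1, which held no control array, it was lower on the 2 arrays of 5 mg/kg bw than on the 2 of 1 mg/kg bw by -0.36. Between the arrays of row 1, the 5 mg/kg bw array of slide 2 differed from the mean of the control by -0.076 and the 1 mg/kg bw array by -0.037. With the row as a block, the change at 5 mg/kg bw was -0.18, with an unadjusted p of 0.255 and an adjusted p of 0.996 from limma. That block took row 1 of both slides together, so the only 5 mg/kg bw array beside the control arrays was that of slide 2. Without 5 mg/kg bw replicate 3, which is the same fit as a block for the slide, it was -0.43, with an unadjusted p of 0.00716 from limma and a Benjamini-Hochberg adjusted p of 0.165. miR-19a-3p then had -0.27, with an unadjusted p of 0.00964, which made the count 2 of 8. In that fit 120 of the tested miRNAs had an unadjusted p under 0.05, where 40 had one with all arrays.

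Seed partners of the 2 clusters were then set against each other on the same array, where any scaling between arrays cancels. miR-92a-3p minus miR-25-3p was -0.13, -0.26 and -0.30 in the control, -0.18, -0.30 and -0.39 at 1 mg/kg bw and -0.59, -0.48 and -0.43 at 5 mg/kg bw. All 3 arrays of 5 mg/kg bw, that of slide 2 included, lay below the other 6. The mean fell by 0.26 from the control and by 0.21 from 1 mg/kg bw. As background, such differences without overlap were found for 13.8% of all pairs of tested miRNAs between 5 mg/kg bw and control and for 5.77% between the exposed groups, and the difference was given no test. The change against the control was -0.14 with the background correction normexp and -0.49 in the deposited log2 table, and in both the arrays of 5 mg/kg bw lay below all others.

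The other partners gave no such order for miR-20a-5p. miR-20a-5p minus miR-106b-5p had group means of -0.80 ± 0.084 in the control, -0.70 ± 0.057 with the lower dose and -0.74 ± 0.068 with the higher (SD, n = 3). miR-20a-5p minus miR-93-5p had means of -0.34 ± 0.036, -0.33 ± 0.061 and -0.41 ± 0.069, again with overlap. miR-17-5p minus miR-106b-5p went from -5.36 ± 0.12 in the control to -5.17 ± 0.30 and -5.02 ± 0.086, and miR-17-5p minus miR-93-5p from -4.91 ± 0.051 to -4.79 ± 0.24 and -4.69 ± 0.064. Both differences of miR-17-5p hold a value at the floor on 1 control array and on 1 array of 1 mg/kg bw, and are given as a description. miR-19a-3p minus miR-19b-3p, the partners inside miR-17-92, averaged -3.71 ± 0.071, -3.80 ± 0.11 and -3.85 ± 0.10, with overlap between the groups.

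**Figure D3:**
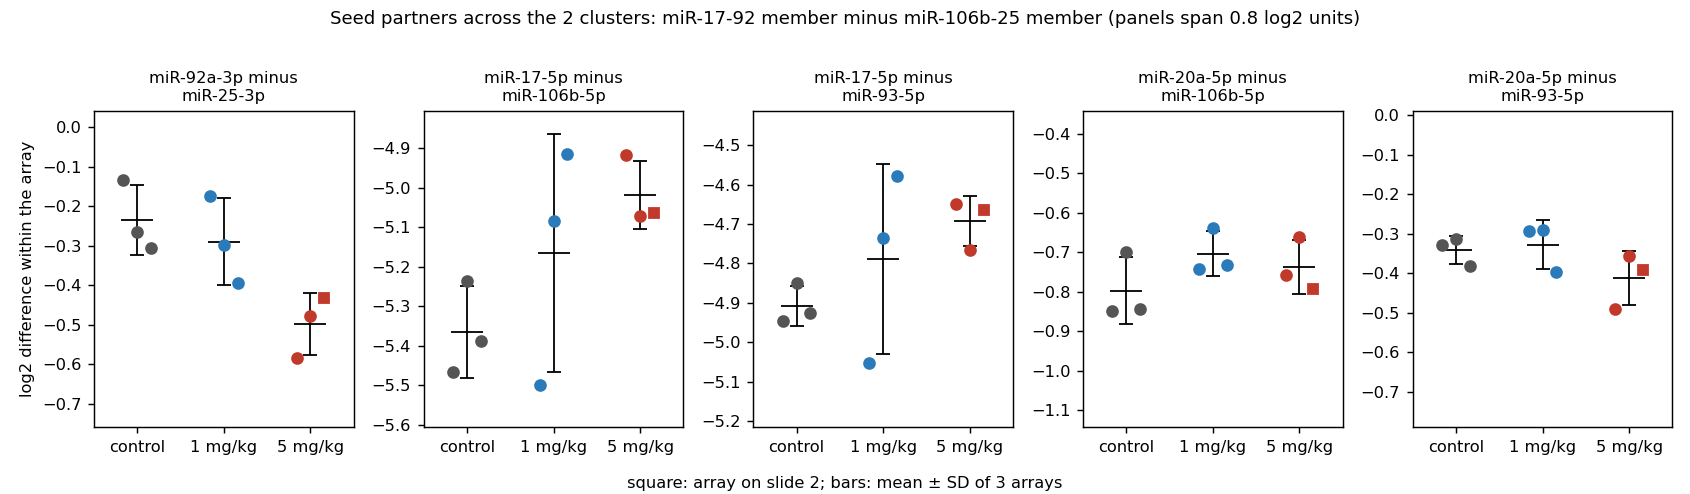
Difference in log2 signal (y axis) between seed partners of the 2 clusters on each array, by group (x axis), with every panel spanning 0.8 log2 units. Bars give the mean and SD of 3 arrays, and the square is the array on slide 2. The left panel shows miR-92a-3p minus miR-25-3p, where the 5 mg/kg bw arrays, at -0.59 to -0.43, lie below all others.

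Taken as whole clusters, the groups could hardly be separated. The mean of the 6 members of miR-17-92 minus the mean of the 3 members of miR-106b-25 was -2.29 ± 0.049 in the control, -2.26 ± 0.049 with the lower dose and -2.30 ± 0.015 with the higher (SD, n = 3). The changes from the control of 0.036 and -0.0057 were within these SDs, and the groups overlapped. With only the 4 members of miR-17-92 that were detected on all arrays, a choice made after the detection calls were seen, the difference was -1.07 ± 0.047, -1.08 ± 0.096 and -1.17 ± 0.034. The mean at 5 mg/kg bw was then lower than in the control by -0.093, without overlap. No background share is given for such means of several members, and miR-92a-3p is 1 of these 4 members.

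Members of the 2 clusters were compared from array to array, across clusters and within them. Over all 36 pairs the median Pearson r was 0.66 (Spearman's rho 0.56), and where the 2 arrays farthest from the median of the first member were left out it was 0.29, so the value for all pairs rests in part on those arrays. Over all 89676 pairs of tested miRNAs and 9 arrays the median was 0.023, and 11.5% of those pairs exceeded 0.66. Within miR-106b-25 the 3 pairs had a median r of 0.80, the 18 pairs between clusters 0.68 and the 15 pairs within miR-17-92 0.37, and without those 2 arrays the medians were 0.77, 0.46 and 0.023. The value for miR-17-92 rests on miR-17-5p and miR-18a-5p, since the 6 pairs among the 4 members of miR-17-92 detected on all arrays had a median of 0.73 (0.49 without those 2 arrays). Over the 21 pairs among the 7 members detected on all arrays the median r was 0.72, and 0.70 without those 2 arrays. The 8 pairs with the same seed had a median r of 0.67 and the 28 others 0.66, with medians of rho of 0.61 and 0.53, and of r without those 2 arrays of 0.47 and 0.24. The difference was not tested. All values of an array share its scaling, the points are the same 9 arrays in every pair, and the background gives no chance level for a pair.

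Of the 36 pairs, 4 passed an adjusted p under 0.05 by Pearson's r and 5 by Spearman's rho. These were two-sided exact permutation tests over all 362880 orders of the arrays, across groups and slides, with adjustment over the 36 pairs. The share of all pairs of tested miRNAs that would pass was not computed, so these counts have no background beside them. Over all those pairs the quartiles of r were -0.35 and 0.40. miR-20a-5p and miR-19b-3p, neighbours on the transcript, had the highest r, at 0.93 (rho 0.93, adjusted exact p = 0.0110 for r and 0.0236 for rho). The others by r were miR-93-5p with miR-25-3p (r = 0.92, rho 0.87), miR-20a-5p with miR-92a-3p (r = 0.89, rho 0.88) and miR-92a-3p with miR-106b-5p (r = 0.89, rho 0.87), the last across clusters. Without the 2 arrays farthest from the median of the first member, r was 0.95, 0.77, 0.70 and 0.85 in these 4 pairs, and over the 8 arrays of slide 1 it was 0.92, 0.90, 0.91 and 0.92. The rows of the slides, with 5 and 4 arrays, were too few for a correlation. The lowest r was -0.36, between miR-17-5p and miR-19a-3p of the same transcript.

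**Figure D4:**
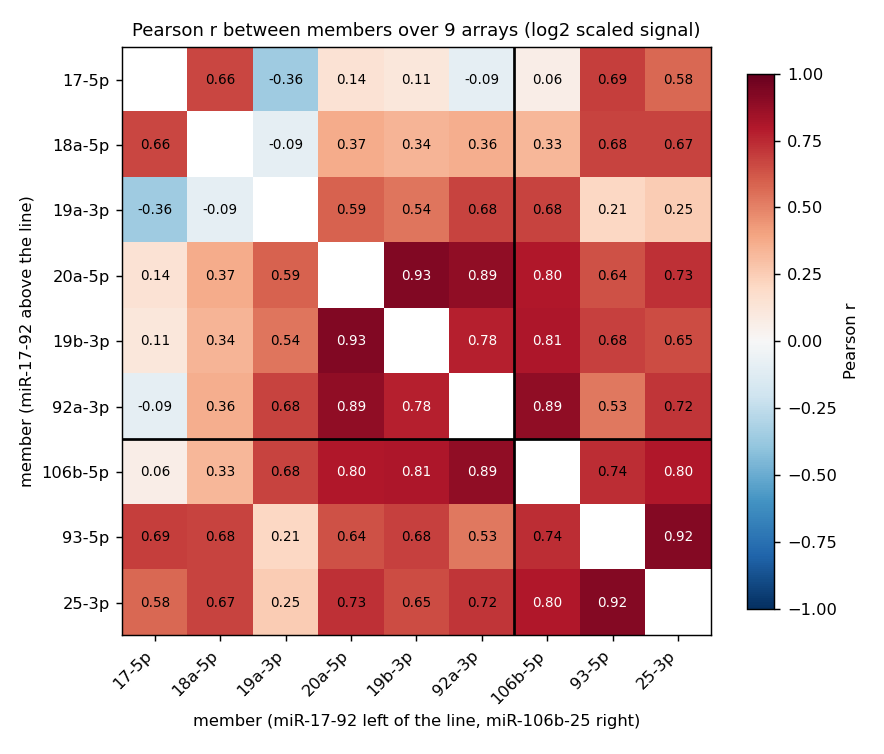
Pearson r of log2 scaled signal over the 9 arrays for each pair of members, with miR-17-92 before and miR-106b-25 after the black lines on both axes. The block of miR-20a-5p, miR-19b-3p, miR-92a-3p and miR-106b-5p holds values of 0.78 to 0.93, and the rows of miR-17-5p and miR-18a-5p hold the lowest.

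The relatives of the members outside both clusters were mostly not detected. Of 7 other mouse miRNAs on the array with a seed of a member, 2 were tested, and 0 of them had an unadjusted p under 0.05 in any comparison. miR-20b-5p, of miR-106a-363, had fitted changes of 0.046 (lower dose) and -0.025 (higher dose). miR-92b-3p, which has the seed of miR-92a-3p but a locus of its own, read -4.58, -4.83 and -4.61 in the control, -5.11, -5.28 and -4.59 at 1 mg/kg bw and -4.97, -4.89 and -4.97 at 5 mg/kg bw. All 3 arrays of 5 mg/kg bw lay below the control, by -0.27 on average (SE 0.16, with an unadjusted p of 0.132 and an adjusted p of 0.635 from limma), where 9.43% of all tested miRNAs were lower without overlap. Of the 9 other strands of the members' hairpins only miR-17-3p was tested, with changes of 0.040 and 0.039, so on the array miR-17-3p was detected on 9 arrays and miR-17-5p on 7. Of 9 miRNAs of miR-106a-363 on the array, only miR-20b-5p was tested.

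The miRNAs outside these lists with the most similar course over the 9 arrays were named for the mean of each cluster, out of 413 compared. For miR-17-92 they were miR-362-3p (r = 0.91), miR-15b-5p (r = 0.90) and miR-27a-3p (r = 0.90). For miR-106b-25 they were miR-27a-3p (r = 0.95), miR-23a-3p (r = 0.94) and miR-490-3p (r = 0.94). These are the highest of 413 values each and carry no test.

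The call for miR-92a-3p at 5 mg/kg bw depended on how the arrays were processed, while its direction was below 0 in all 24 alternatives. These reuse the same arrays and are no independent support. It lost the unadjusted threshold with the total signal of the files (-0.16) and without scaling (-0.20), which also moved the median of all tested miRNAs to 0.14 and 0.11. Relative to that median the change was -0.29 and -0.31. It was also lost without replicate 1 (-0.21) or 3 (-0.35) of the control, replicate 1 of the lower dose (-0.31), or replicate 1 (-0.23) or 2 (-0.27) of the higher dose. In the deposited log2 table the change was -0.58, with an unadjusted p of 0.0256 from limma. Over all alternatives the adjusted p was 0.165 to 0.998.

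**Figure D5:**
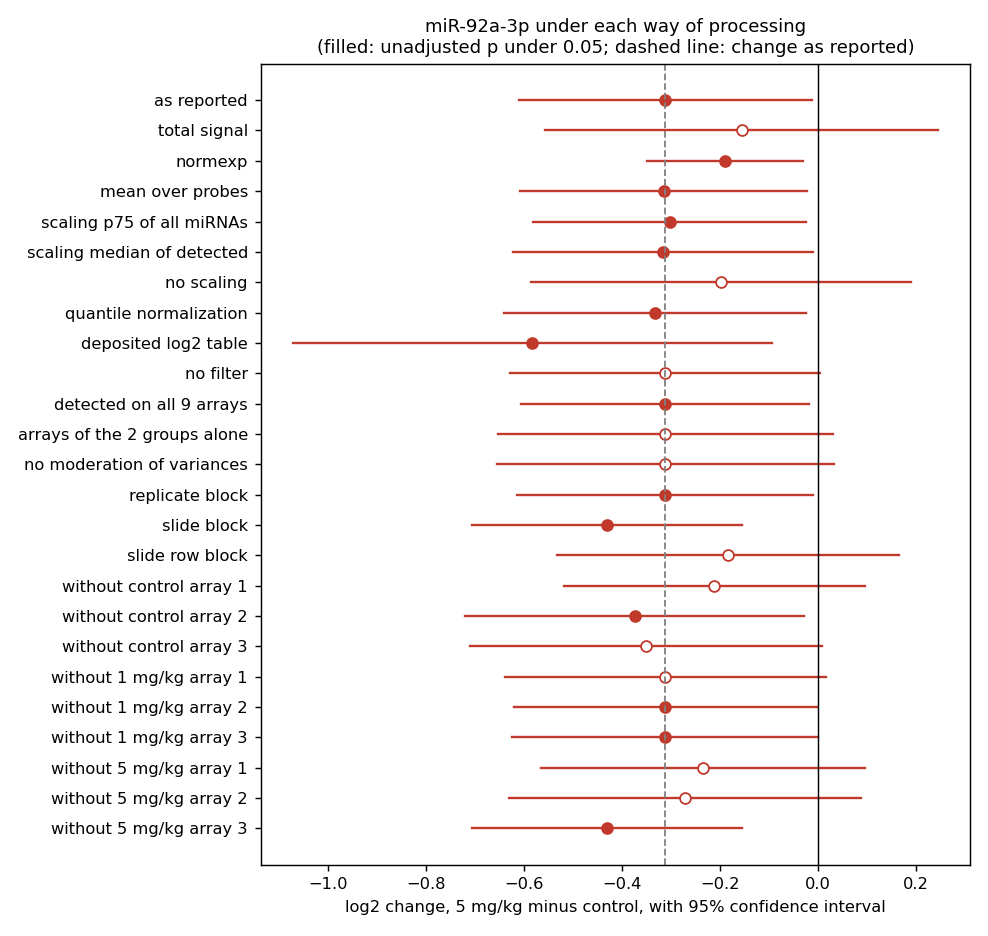
Log2 change of miR-92a-3p between 5 mg/kg bw and control (x axis, with 95% confidence interval) as reported and under each of 24 other ways of processing (y axis). Filled points have an unadjusted limma p under 0.05. All points lie below 0, between -0.58 and -0.16.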

How the data were processed

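Hippocampal RNA of 9 mice was hybridized to Agilent mouse miRNA arrays (version 19.0). The authors deposited Feature Extraction 10.7 output, per the labels, with spot intensity after background subtraction, detection calls and a total signal, not normalized between arrays. A second deposited file holds log2 values, used as an alternative, whose column medians are -3.32 to -3.29 and whose normalization and centring are not given in the sources used here.

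Outlier spots were left out, spots of a probe averaged and probes of a miRNA summed. Signals were scaled to the 75th percentile of the 395 miRNAs with detection on every array, floored at the lowest detected signal of the array and converted to log2. The 424 tested miRNAs were fitted over all 3 groups with limma 3.58.1 in R 4.3.3 (tested on simulated data), with Benjamini-Hochberg adjustment. Exact permutation tests of single members used scipy 1.17.1, and those of the pair correlations were computed with numpy 2.4.6. At most 0 of 49880 spots had the same background-subtracted intensity on 2 arrays. Precision is limited by having 3 arrays per group. Same-numbered replicates were not paired, since their deviations from the group means correlated between -0.65 and 0.74. RefSeq held mature sequences for 1017 of the 1247 names. Alternatives were other signals, scalings, filters and blocks, and each array left out. The members and lists were chosen with earlier results of these data known. Named were the 9 members, tested relatives by seed, strand or miR-106a-363, the cell type markers, and the 3 miRNAs with the highest r for each cluster.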

Additional observations from a re-analysis of the deposited data

How the results depend on the processing

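No change of a member that passed the unadjusted threshold in either setting turned direction in the 24 alternatives, while 81 of 542 changes that passed it in neither took the other sign. At 1 mg/kg bw 0 members were called in every alternative. At 5 mg/kg bw the count fell from 1 to 0 with the total signal, no scaling, no filter on detection, the 2 groups alone, no moderation of variances and a block for the row, and was 2 with a block for the slide. Leaving out 1 array at a time gave 0 to 2. For miR-92a-3p the unadjusted p was 0.0528 with no filter, 0.0668 with the 2 groups alone and 0.0684 with no moderation. A replicate block left it called (-0.31, with an unadjusted p of 0.0446) and changed no call. Between the exposed groups the count was 1 in place of 0 with the 75th percentile of all miRNAs, the deposited log2 table and the slide block, and 0 to 1 with each array left out. That member was miR-92a-3p (-0.37, with a p of 0.0143 from limma, without replicate 3 of the higher dose), and miR-17-5p without replicate 3 of the lower dose. The change of miR-17-5p there (0.28) is a description, since it entered the test through the higher dose.

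The change in the difference between the clusters at 1 mg/kg bw was 0.11 with the total signal, -0.0096 with normexp, 0.29 in the deposited log2 table and -0.0064 with the members detected on all arrays. At 5 mg/kg bw it was 0.35, 0.099 and -0.093 with the total signal, the deposited table and those members. miR-17-5p alone differed there by 2.82 with the total signal, which followed its detection call, and by 1.22 in the deposited table, given as a description. The median r within miR-17-92 was 0.78 without scaling. Within miR-106b-25 it was 0.91 with the total signal, 0.93 without scaling, 0.45 with quantile normalization and 0.43 in the deposited table, and between clusters 0.40 with normexp and 0.35 in the deposited table. Other models, blocks and filters were not run for differences and correlations, which involve no fit. Causes were not tested. Detection limits miR-17-5p and miR-18a-5p.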
